A study of Homo sapiens with 12 samples.

Results

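MiR-124, miR-7 and miR-218 are miRNAs of neurons and neuroendocrine cells, and their levels are described here in 2 human embryonal carcinoma (EC) cell lines after knock-down of the transcription factor SOX2. They were read by 4 of the 501 assays on the array cards, chosen by name with earlier results of these data known: mmu-miR-124a (miR-124), hsa-miR-124# (miR-124#, the minor strand of the same hairpin), dme-miR-7 (miR-7) and hsa-miR-218 (miR-218). The prefixes mmu and dme are those of mouse and fly, for which the assays are named, and # marks the minor strand of a precursor. The groups were NTera-2 siSOX2, NTera-2 NC, 2102Ep siSOX2 and 2102Ep NC, with 3 samples labelled as biological replicates in each, 12 in all. NTera-2 is a pluripotent EC line that can be driven towards neurons, and 2102Ep is a nullipotent one. siSOX2 samples received siRNA against SOX2, and NC samples a non-targeting siRNA. NTera-2 cells were given 30 nM siRNA with Lipofectamine RNAiMAX and 2102Ep cells 15 nM with Lipofectamine 2000, so that line, dose and reagent cannot be told apart. RNA was collected after 6 h of transfection and 72 h in growth medium. SOX2 itself is not among the assays, and the knock-down was not analysed here.

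A miRNA acts by pairing of its seed, the bases near its 5′ end, with sites in target mRNAs, which are then degraded or translated less. MiR-124 is the most abundant miRNA of mature neurons and represses non-neuronal transcripts, including the mRNA of the splicing repressor PTBP1. MiR-7 is enriched in pituitary, pancreatic islets and neurons and is bound by the circular RNA CDR1as, while miR-218 is enriched in motor neurons and is processed from introns of the SLIT genes, which encode axon guidance cues.

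The mature strands of miR-7 and miR-218 and the minor strands that were also assayed are given in RefSeq (GRCh38.p14) as follows, with the seed (bases 2 to 8) in capitals, because each assay reads a single strand and the strands of one precursor share no seed.
hsa-miR-7-5p: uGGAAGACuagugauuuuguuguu
hsa-miR-7-2-3p: cAACAAAUcccagucuaccuaa
hsa-miR-218-5p: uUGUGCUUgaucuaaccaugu
hsa-miR-218-2-3p: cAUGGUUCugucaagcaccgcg
The miR-7 strand was found in 3 precursors, MIR7-1 (its mature strand at chr9:83969811-83969834, minus strand, within the span of HNRNPK), MIR7-2 (hairpin at chr15:88611825-88611934, within the span of AEN) and MIR7-3 (mature strand at chr19:4770700-4770723, plus strand, within MIR7-3HG). The miR-218 strand was found in 2 precursors, MIR218-1 (mature strand at chr4:20528299-20528319, plus strand, within SLIT2) and MIR218-2 (mature strand at chr5:168768211-168768231, minus strand, within SLIT3). The assays for miR-7 and miR-218 therefore read the sum over these loci. The minor strands come from 1 precursor each: miR-7-2# from MIR7-2, with the mature strand at chr15:88611896-88611917, and miR-218-2# from MIR218-2, at chr5:168768168-168768189.

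Levels were read as threshold cycles (Ct) and deposited as dCt, the Ct minus a reference Ct of the sample and card. Both are log2 scales on which a higher value means less RNA, and a log2 fold change is given here as siSOX2 minus NC after turning the sign, so that a positive value means more RNA in siSOX2 cells. Card A carried miR-124 and miR-218, and card B carried miR-7 and all of the minor strands. At least 449 assays were measured in each NTera-2 sample, and at least 421 in each 2102Ep sample. As a check of the cell type, all 8 EC markers looked for (miR-302a to miR-302d, miR-367, miR-371-3p, miR-372 and miR-373) were measured, with mean raw Ct between 13.9 and 26.1 in the 4 groups. Among NC cells the mean raw Ct of miR-371-3p was 25.2 in NTera-2 and 19.1 in 2102Ep. That of miR-372 was 22.9 in NTera-2 NC and 16.7 in 2102Ep NC cells. MiR-143 and miR-145 were listed for mesenchymal cells, with mean raw Ct between 22.7 and 26.1. MiR-143 had no value in NTera-2 cells and had values in 2 samples of 2102Ep siSOX2 (log2 fold change 3.48, limma, adjusted p = 0.0685). Markers of blood (miR-142-3p and miR-223, 22.9 to 29.8) and muscle (miR-133a and miR-206, 21.1 to 26.4) were measured as well. So were those listed for neurons (miR-9, miR-128a and miR-124, 18.8 to 26.8). Being measured therefore does not by itself mark a cell type. In a limma fit across all assays with Benjamini-Hochberg adjustment, 1 EC marker (miR-372, log2 fold change −1.40, adjusted p = 0.0261) and miR-145 (1.49, adjusted p = 0.0116) changed in NTera-2 cells, and no marker of these lists did in 2102Ep cells. Their part in the results below was not tested.

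With the deposited reference, SOX2 knock-down in NTera-2 cells was followed by lower miR-7 and higher miR-218. These 2 calls depended on the settings: that on miR-7 held in 6 of 17 alternatives and that on miR-218 in 10 of 17. MiR-124 was lower in every siSOX2 sample than in every NC sample without passing the test. The same held for its minor strand in dCt, while the raw Ct of that strand overlapped. Arms that did not overlap in dCt were seen in 29.0% of all assays tested in this line. In 2102Ep cells, miR-218 was lower instead, and neither miR-124 nor miR-7 passed the test. The plot of levels by sample shows these values.

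**Figure D1:**
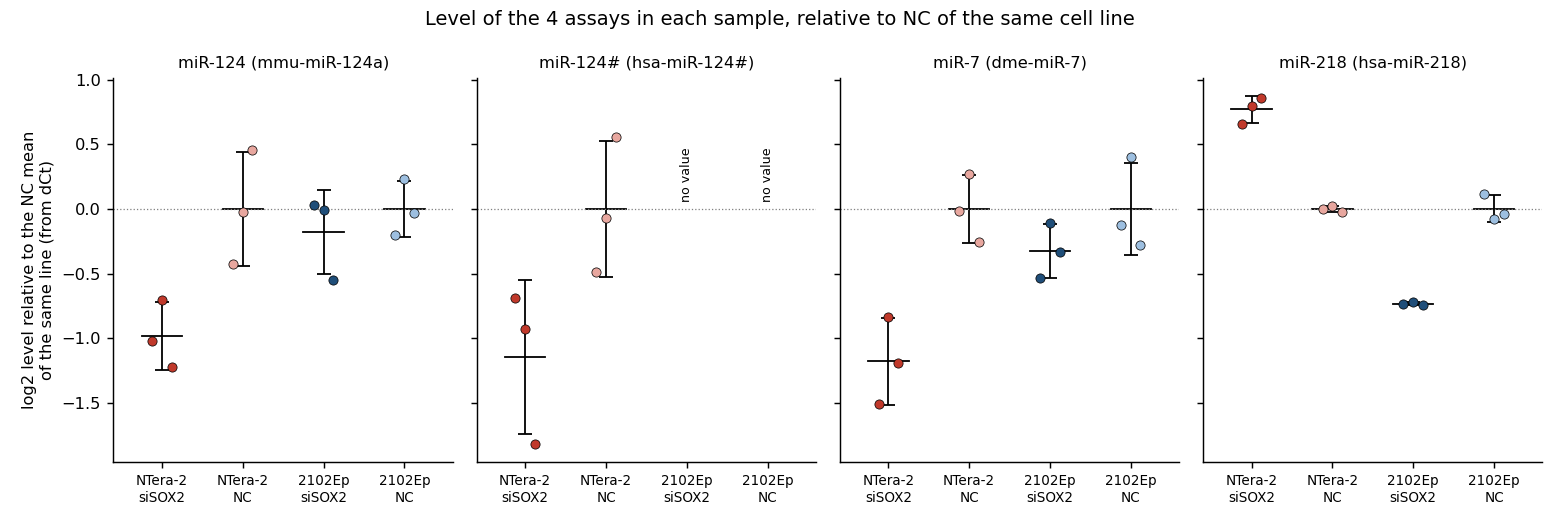
Level of the 4 assays in each sample on the log2 scale, taken from dCt and set against the NC mean of the same line, for NTera-2 siSOX2, NTera-2 NC, 2102Ep siSOX2 and 2102Ep NC. Points are samples, and lines with bars are the mean ± SD (n = 3); miR-218 lies above NC in the 3 NTera-2 siSOX2 samples and below NC in the 3 2102Ep siSOX2 samples, and miR-124# had no value in 2102Ep cells.

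MiR-218 had a dCt of 8.20, 8.05 and 8.0 in NTera-2 siSOX2 cells, against 8.85, 8.83 and 8.88 in NTera-2 NC cells. In 2102Ep siSOX2 cells it had a dCt of 5.52, 5.50 and 5.52, against 4.66, 4.86 and 4.82 in 2102Ep NC cells. The arms did not overlap in either line, and the siSOX2 samples lay on opposite sides of NC. The same separation was seen in the raw Ct before any reference was subtracted: 22.7, 23.0 and 22.6 cycles in NTera-2 siSOX2 against 23.9, 23.3 and 23.5 in NTera-2 NC, and 23.8, 23.4 and 24.0 in 2102Ep siSOX2 against 22.9, 22.9 and 23.2 in 2102Ep NC. The log2 fold change was 0.77 ± 0.16 (SE, limma, adjusted p = 0.0227) in NTera-2 cells, with a 95% confidence interval of 0.42 to 1.12. The value for 2102Ep cells was −0.73 ± 0.16 (adjusted p = 0.0100), with an interval of −1.08 to −0.38. Of all assays tested, 5.54% were called in NTera-2 cells (25 assays) and 14.6% in 2102Ep cells (63 of 432). Arms that did not overlap were seen in 29.0% of assays in NTera-2 cells and in 31.9% in 2102Ep cells.

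The difference between the lines in the miR-218 response was itself tested. The effect in NTera-2 cells exceeded that in 2102Ep cells by 1.50 ± 0.22 (SE, limma, adjusted p = 0.00387, 95% confidence interval 1.01 to 2.00), where 6.23% of 385 assays were called. Same-numbered siSOX2 and NC samples deviated together weakly in both lines (correlations of 0.12 to 0.26 in NTera-2 cells and 0.06 to 0.17 in 2102Ep cells). With the replicate number as a block, the limma adjusted p was 0.0525 for this difference between the lines. It was 0.0675 for the rise in NTera-2 cells and 0.0438 for the fall in 2102Ep cells. The NTera-2 call was also lost with U6 as the reference (0.59, adjusted p = 0.0903), with RNU44 and RNU48 (0.67, adjusted p = 0.177), with the NTera-2 samples fitted alone (adjusted p = 0.108), and when NC replicate 3, siSOX2 replicate 2 or siSOX2 replicate 3 was left out (adjusted p between 0.0620 and 0.0855). With RNU44 and RNU48 the 2102Ep change was −0.38 (adjusted p = 0.308) and the difference between the lines 1.05 (adjusted p = 0.0714).

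MiR-7 had a dCt of 8.88, 8.21 and 8.56 in NTera-2 siSOX2 cells, against 7.38, 7.10 and 7.63 in NTera-2 NC cells. In 2102Ep siSOX2 cells it had a dCt of 1.06, 0.64 and 0.86, against 0.65, 0.12 and 0.80 in 2102Ep NC cells. The arms were apart in NTera-2 cells, in dCt and in raw Ct, and overlapped in 2102Ep cells. NTera-2 cells gave a log2 fold change of −1.18 ± 0.26 (SE, limma, adjusted p = 0.0261, 95% confidence interval −1.76 to −0.60), which is 2.26-fold less miR-7. In 2102Ep cells it was −0.33 ± 0.26 (adjusted p = 0.499), with an interval of −0.90 to 0.25. The 2 effects differed by −0.85 ± 0.37, which did not pass the adjusted threshold (adjusted p = 0.201, unadjusted p = 0.0413), so the fall was not shown to differ between the lines. The deposited reference of card B was also not the same in both lines. With a like reference in both, the difference was −0.33 with the global mean (limma, adjusted p = 0.722) and −0.47 with the global median (adjusted p = 0.589). It was −1.34 with RNU44 and RNU48 (adjusted p = 0.0759).

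The miR-7 call in NTera-2 cells depended on the reference and on single samples. The median log2 fold change of all assays tested was −0.27 in this line, and with the global mean of the card as the reference miR-7 changed by −0.67 (adjusted p = 0.272), with the global median by −0.66 (adjusted p = 0.245). It missed the threshold with U6 (−1.17, adjusted p = 0.0796), with RNU44 and RNU48 (−1.11, adjusted p = 0.0882), with the replicate block (adjusted p = 0.0533), with the line fitted alone (adjusted p = 0.0987), and without any 1 of the 3 NC samples or siSOX2 replicates 1 and 3 (adjusted p between 0.0571 and 0.0966).

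MiR-124 had a dCt of 12.19, 11.88 and 12.40 in NTera-2 siSOX2 cells, against 11.60, 11.20 and 10.72 in NTera-2 NC cells. In 2102Ep siSOX2 cells it had a dCt of 6.13, 6.17 and 6.71, against 6.36, 5.93 and 6.19 in 2102Ep NC cells. The arms were apart in NTera-2 cells, in raw Ct as well, and overlapped in 2102Ep cells. The log2 fold change in NTera-2 cells was −0.98 ± 0.28 (SE, limma), with a 95% confidence interval of −1.60 to −0.37 and an adjusted p of 0.0710, and it passed the threshold only when NC replicate 1 was left out (−1.20, adjusted p = 0.0450). In 2102Ep cells the value was −0.18 ± 0.27 (adjusted p = 0.758), with an interval of −0.79 to 0.43. The difference between the lines was −0.81 ± 0.39 (adjusted p = 0.253).

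The minor strand, miR-124#, was listed in the 6 NTera-2 samples and in no 2102Ep sample. Its dCt was 10.75, 10.99 and 11.88 in NTera-2 siSOX2 cells, against 10.54, 10.13 and 9.50 in NTera-2 NC cells. The dCt of the arms did not overlap, although the lowest siSOX2 value (10.75) lay close to the highest NC value (10.54), and the raw Ct did overlap. The log2 fold change was −1.15 ± 0.42 (SE, limma, adjusted p = 0.174, 95% confidence interval −2.16 to −0.13). Neither strand of miR-124 was called in this line. Under the global mean as the reference the estimate was −0.63 for miR-124# and −0.78 for miR-124, and under the global median −0.62 for miR-124# and −0.95 for miR-124. All 4 assays had an unadjusted p of 0.05 or less in NTera-2 cells, the threshold of the study's methods, as did 21.7% of all assays tested in that line.

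**Figure D2:**
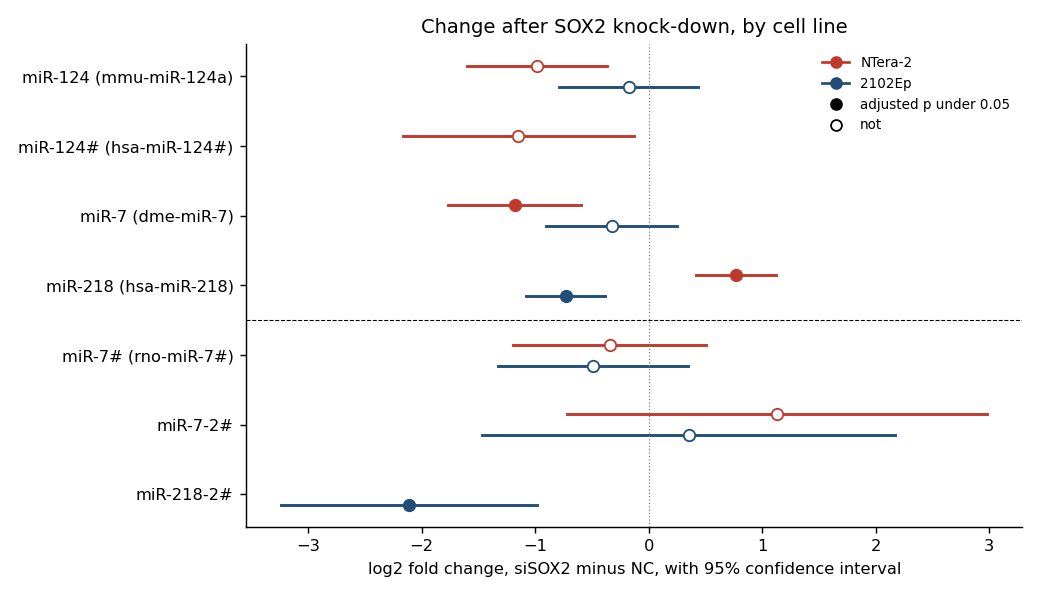
Log2 fold change of siSOX2 minus NC (horizontal axis) with its 95% confidence interval from limma, in NTera-2 and 2102Ep cells, for the 4 assays (above the dashed line) and for the minor strands of miR-7 and miR-218 precursors (below it). Filled points have an adjusted p under 0.05: miR-7 and miR-218 in NTera-2 cells, and miR-218 and miR-218-2# in 2102Ep cells.

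MiR-218 and miR-124 share card A, so their difference within a sample does not depend on the reference. The Ct of miR-124 minus that of miR-218 was 3.99, 3.83 and 4.40 cycles in NTera-2 siSOX2 cells, against 2.75, 2.37 and 1.84 cycles in NTera-2 NC cells. The arms were apart, and miR-218 gained 1.75 cycles on miR-124 after knock-down. This gain restates the rise of miR-218 and the fall of miR-124 given above and is not separate evidence. The share of other same-card pairs whose arms lie apart is not given here. The two-sided exact permutation p was 0.1, the smallest that 3 against 3 samples can give. In 2102Ep siSOX2 cells the difference was 0.61, 0.67 and 1.19 cycles, against 1.70, 1.07 and 1.37 cycles in 2102Ep NC cells, so that miR-218 lost 0.55 cycles on miR-124 with overlapping arms (exact permutation p = 0.2). On card B of NTera-2 cells, miR-7 changed by −0.033 cycles relative to miR-124# (exact permutation p = 0.9), with an SD of 0.74 cycles in siSOX2 and 0.71 cycles in NC samples. Relative to rno-miR-7#, an assay named for the rat minor strand of miR-7, it changed by −0.83 cycles in NTera-2 cells with arms that did not overlap (exact permutation p = 0.1) and by 0.17 cycles in 2102Ep cells with overlapping arms (exact permutation p = 0.9). In 2102Ep cells miR-7 gained 1.78 cycles on miR-218-2#, the minor strand of a miR-218 precursor, and these arms were apart (exact permutation p = 0.1). MiR-7 itself did not rise there (log2 fold change −0.33), and the gain restates the fall of miR-218-2# (−2.11). The differences of miR-7 from miR-124# and rno-miR-7# likewise restate changes of the single assays and are not separate evidence.

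**Figure D3:**
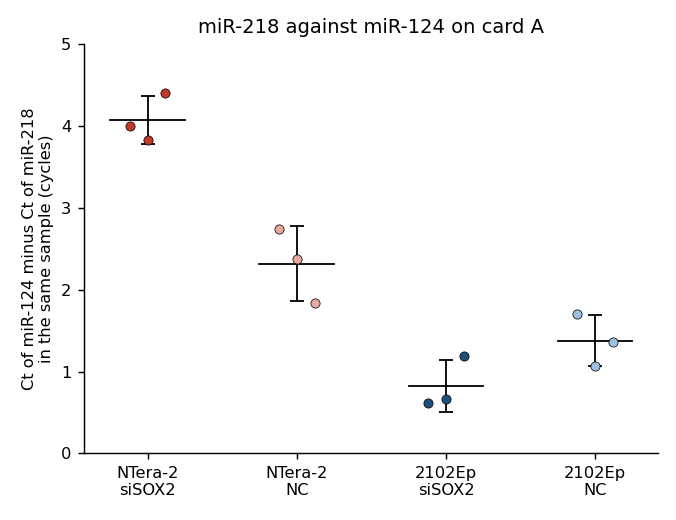
Ct of miR-124 minus Ct of miR-218 in the same sample (cycles, higher means more miR-218 relative to miR-124) in NTera-2 siSOX2, NTera-2 NC, 2102Ep siSOX2 and 2102Ep NC. Points are samples and bars the mean ± SD (n = 3); NTera-2 siSOX2 samples lie between 3.83 and 4.40 cycles, above all NTera-2 NC samples.

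The reference moved the estimates in both lines. Referred to the global mean in place of the deposited reference, the median of all assays moved by 0.32 in NTera-2 cells, and in 2102Ep cells it moved by 0.44 when referred to RNU44 and RNU48. RNU44, a small nucleolar RNA, had on card B a Ct of 17.4, 17.7 and 17.9 in 2102Ep siSOX2 samples, against 16.9, 17.0 and 16.9 in 2102Ep NC samples, and these did not overlap. On card A, which carried miR-218 and miR-124, it had 17.79, 17.57 and 17.91 against 17.12, 17.58 and 17.28, and these overlapped. RNU48 was likewise apart on card B and overlapping on card A. MiR-218 had the same sign under all 5 references in each line. In 2102Ep cells the non-significant values of miR-124 (0.17) and miR-7 (0.23) turned positive under RNU44 and RNU48.

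**Figure D4:**
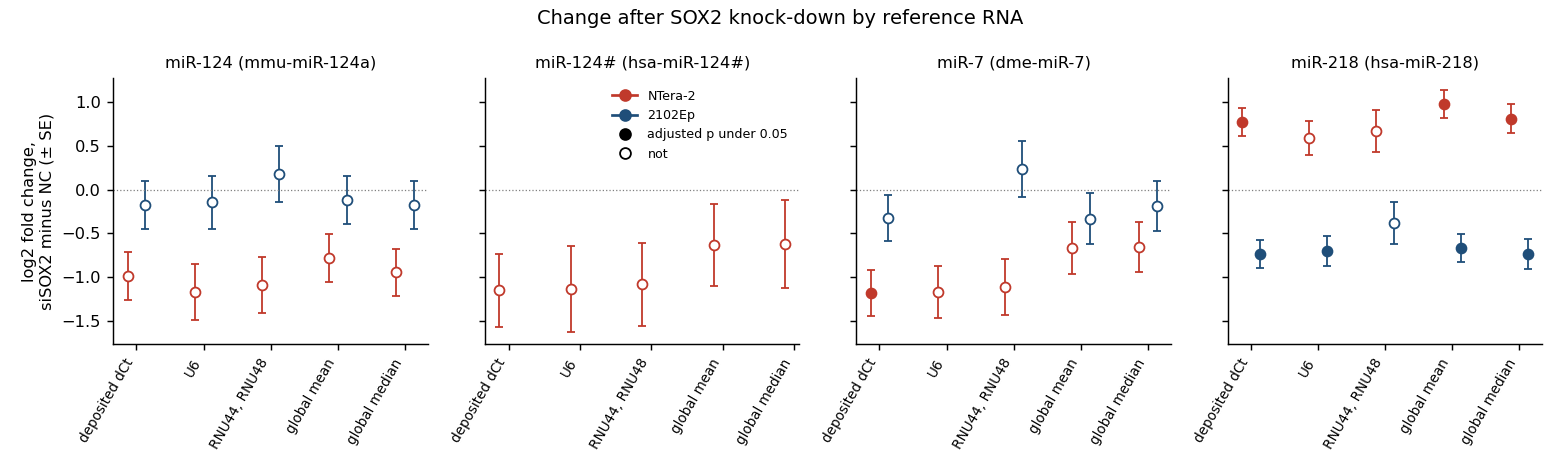
Log2 fold change of siSOX2 minus NC (± SE from limma, vertical axis) under 5 references: the deposited dCt, U6, RNU44 and RNU48, and the global mean and median of the card. Filled points have an adjusted p under 0.05; miR-218 was above 0 in NTera-2 cells and below 0 in 2102Ep cells under each, and miR-7 in NTera-2 cells ranged from −1.18 to −0.66. For 2102Ep no U6 value of card B was used.

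The other strands of the same precursors did not all follow. MiR-218-2#, opposite to miR-218 in the MIR218-2 hairpin, was listed only in 2102Ep cells, where its dCt was 6.29, 4.74 and 6.26 in siSOX2 samples, against 3.64, 3.37 and 3.96 in NC samples. Every siSOX2 sample lay beyond every NC sample, and the log2 fold change was −2.11 ± 0.47 (SE, limma, adjusted p = 0.0272, 95% confidence interval −3.23 to −0.99). Both miR-218 and miR-218-2# thus fell in 2102Ep cells. The call on the minor strand was lost with RNU44 and RNU48 (−1.55, adjusted p = 0.0784) and without any 1 of the 3 NC samples or siSOX2 replicates 1 and 3 (adjusted p between 0.0717 and 0.0863). Its raw Ct ranged from 28.0 to 31.3.

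MiR-7-2#, from MIR7-2, had a dCt of 9.62, 9.97 and 10.35 in NTera-2 siSOX2 cells, against 12.34, 8.64 and 12.35 in NTera-2 NC cells. NC replicate 2, at 8.64, stood apart from the other NC samples, and with it the change of 1.13 ± 0.83 did not pass the test (adjusted p = 0.491). Without that sample it was 2.37 (adjusted p = 0.00794), without NC replicate 1 it was 0.52 (adjusted p = 0.811) and without NC replicate 3 it was 0.51 (adjusted p = 0.900). In 2102Ep cells the change was 0.35 ± 0.82 (adjusted p = 0.864). The assay rno-miR-7#, included after its name had been seen in the files, changed by −0.34 ± 0.38 in NTera-2 cells and −0.49 ± 0.38 in 2102Ep cells (adjusted p = 0.683 and 0.486).

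Levels were then set across the 4 groups, as log2 values relative to the mean of the card in the same sample, over the 224 assays of card A and 146 of card B measured in all 12 samples. MiR-218 was at 1.81, 1.74 and 1.73 in NTera-2 siSOX2, 0.86, 0.78 and 0.66 in NTera-2 NC, 0.43, 0.46 and 0.61 in 2102Ep siSOX2 and 1.17, 1.30 and 1.12 in 2102Ep NC. From the highest mean to the lowest the order was NTera-2 siSOX2, 2102Ep NC, NTera-2 NC and 2102Ep siSOX2, and no neighbours in this order overlapped. MiR-124 was at −2.18, −2.08 and −2.67 in NTera-2 siSOX2, −1.89, −1.59 and −1.18 in NTera-2 NC, −0.18, −0.21 and −0.58 in 2102Ep siSOX2 and −0.53, 0.23 and −0.25 in 2102Ep NC. It was highest in 2102Ep NC, which overlapped with 2102Ep siSOX2, then lower in NTera-2 NC and lowest in NTera-2 siSOX2, both apart from their neighbours. MiR-7 was at −0.67, 0.23 and −0.53 in NTera-2 siSOX2, 0.27, 0.79 and 0.00 in NTera-2 NC, −1.80, −1.28 and −1.49 in 2102Ep siSOX2 and −1.20, −0.81 and −1.47 in 2102Ep NC. On this scale both NTera-2 arms overlapped with each other, as did both 2102Ep arms, and every NTera-2 value lay above every 2102Ep value. Levels of the lines did not overlap for 78.7% of all assays among siSOX2 cells and for 78.0% among NC cells.

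**Figure D5:**
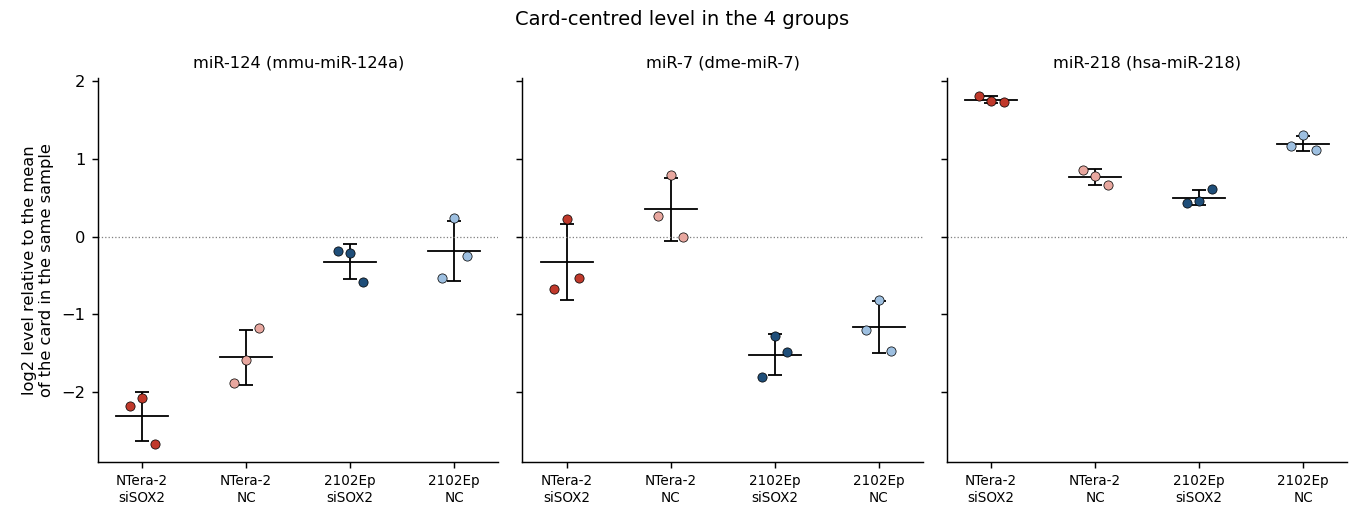
Log2 level of miR-124, miR-7 and miR-218 relative to the mean of the card in the same sample (vertical axis) in NTera-2 siSOX2, NTera-2 NC, 2102Ep siSOX2 and 2102Ep NC. Points are samples and bars the mean ± SD (n = 3). On this scale miR-124 is lower and miR-7 higher in NTera-2 than in 2102Ep cells. MiR-218 is higher in NTera-2 than in 2102Ep cells after siSOX2, and its difference among NC cells was not called (limma, adjusted p = 0.112). With RNU44 and RNU48 as the scaling, miR-7 and miR-218 were lower in NTera-2 cells in both arms.

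The lines were compared within each arm by limma, with levels centred on the assays measured in the 6 samples compared. Among siSOX2 cells, the difference of NTera-2 minus 2102Ep was −1.99 ± 0.25 for miR-124 (adjusted p = 0.000368), 1.26 ± 0.31 for miR-7 (adjusted p = 0.00814) and 1.26 ± 0.18 for miR-218 (adjusted p = 0.000763), where calls were common, at 75.3% of 385 assays. Among NC cells, miR-124 was lower in NTera-2 than in 2102Ep cells by 1.36 on the log2 scale (log2 difference −1.36 ± 0.31, adjusted p = 0.00673) and miR-7 was higher by 1.48 ± 0.31 (adjusted p = 0.00452). MiR-218 differed by −0.42 ± 0.21 (adjusted p = 0.112, 95% confidence interval −0.93 to 0.09). There 72.5% of 386 assays were called. Rno-miR-7# was higher in NTera-2 cells by 3.76 ± 0.25 among siSOX2 cells (adjusted p = 3.15e-05) and 2.98 ± 0.45 among NC cells (adjusted p = 0.00101), but with RNU44 and RNU48 it was not called in either arm, at 0.33 among siSOX2 cells (adjusted p = 0.249) and 0.67 among NC cells (adjusted p = 0.224). The direction between the lines depended on the scaling for miR-7, which with RNU44 and RNU48 was −2.17 among siSOX2 cells and −0.83 among NC cells and with the sample median 0.63 among siSOX2 cells (adjusted p = 0.0739), and for miR-218, which with them was −0.91 among siSOX2 cells and, with the sample median, 0.060 among NC cells. RNU44 and RNU48 moved the median difference of all assays by −2.58 among siSOX2 cells and −1.85 among NC cells. MiR-124 was lower in NTera-2 cells under every scaling, with a value of −0.88 (adjusted p = 0.0508) under the median among NC cells.

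The assays whose course over the 12 samples lay closest to each of these were found by the root mean square difference of card-centred levels, each set to a mean of 0, among 369 other assays. For miR-218 they were miR-26a (0.29), miR-642 (0.31) and miR-206 (0.37), against a median of 1.14 over all. For miR-124 they were miR-597 (0.32), miR-487a (0.33) and miR-34a (0.36), with a median of 1.40. For miR-7 they were miR-455-3p (0.30), one of the pair of miR-378 assays (0.32) and miR-222# (0.34), with a median of 1.18.

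A list of 16 other assays held miRNAs of neural cells (miR-9, miR-9#, miR-128, miR-129, miR-138, miR-212, miR-219, miR-383, miR-598 and others). In NTera-2 cells 15 were tested, 1 rose, none fell and 14 did not pass the test, where 5.54% of all assays were called. Their median log2 fold change was 0.12, with −0.27 over all assays tested. In 2102Ep cells 11 were tested, 2 rose, none fell and 9 did not pass, where 14.6% of all assays were called, with a median of −0.05 and 0.00 over all 432. MiR-138, known in rat neurons as a regulator of dendritic spine size, rose in both lines, by 1.26 ± 0.25 in NTera-2 cells (limma, adjusted p = 0.0242), where NC replicate 2 had no value, and by 1.45 ± 0.23 in 2102Ep cells (adjusted p = 0.00331). Its NTera-2 call was lost with the replicate block (adjusted p = 0.0675), with U6 (1.17, adjusted p = 0.0573), with RNU44 and RNU48 (1.10, adjusted p = 0.127), with the line fitted alone (adjusted p = 0.108), without siSOX2 replicate 2 (adjusted p = 0.0750) or 3 (adjusted p = 0.0547), and with unmeasured values set to Ct 40 (5.62, adjusted p = 0.308), as was its 2102Ep call in that last setting (adjusted p = 0.814). MiR-9#, which targets the REST corepressor CoREST, rose by 2.26 ± 0.22 in 2102Ep cells (adjusted p = 0.000193), and its effect in NTera-2 cells was lower by 2.13 (difference −2.13 ± 0.31, adjusted p = 0.00387). It is on card B, where the deposited references differ between the lines, and with the global mean in both lines the difference was −1.61 (limma, adjusted p = 0.0203).

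Between the lines, 10 of these assays could be tested, where 75.3% of all assays were called among siSOX2 cells and 72.5% among NC cells. Among siSOX2 cells 3 were higher in NTera-2 cells (miR-128a, 1.29, miR-212, 1.41, and miR-9#, 0.95, all of which turned negative when scaled to RNU44 and RNU48) and 4 were lower (miR-9, −2.11, miR-138, −0.76, miR-383, −2.88, and miR-598, −1.55). Among NC cells 1 was higher in NTera-2 cells (miR-9#, 2.45) and 3 were lower (miR-219, −2.35, miR-383, −2.88, and miR-598, −1.27). Several of these calls did not hold under every setting. Among siSOX2 cells miR-138 was −0.32 with the sample median (adjusted p = 0.379) and missed the threshold without 2102Ep siSOX2 replicate 2 or 3 or NTera-2 siSOX2 replicate 1 or 3 (adjusted p between 0.0519 and 0.0759), miR-9# was 0.33 with the sample median (adjusted p = 0.251), and miR-212 missed it without NTera-2 siSOX2 replicate 1 or 2 (adjusted p up to 0.0550). Among NC cells miR-9# was 0.14 with RNU44 and RNU48 (adjusted p = 0.746), and miR-219 missed the threshold without 2102Ep NC replicate 1 or 2 or NTera-2 NC replicate 2 or 3 (adjusted p up to 0.0625). The median of the list was 0.10 among siSOX2 cells and −0.53 among NC cells, where the median over all assays was 0.078 and 0.17.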

How the data were processed

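MiRNA levels were measured by TaqMan Array Human MicroRNA A and B cards after pre-amplification in 12 samples. The authors exported raw Ct (log2 scale, not normalized) with DataAssist 3.0 and deposited dCt, also on the log2 scale, after subtracting 1 constant per sample and card; a deposited table of fold ratios and p-values of the authors' comparison was not used. The constant was the mean of miR-16 and U6 on card A, and of miR-16-1#, RNU48 and U6 on the NTera-2 card B. For card B in 2102Ep the constant minus the card median was −0.15 to −0.050 cycles. The raw Ct column of 2102Ep siSOX2 replicate 3 was out of line with its assay names from row 106 on: 0.592% of 338 values lay at the constant (tolerance 0.02 cycles) in place and 99.7% after moving each by 1 measured row, so raw Ct was rebuilt from dCt there, as were 9 blank raw values. The card of each control row in 2102Ep was taken from the order in NTera-2.

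Assays measured (Ct under 40) in at least 2 of 3 samples of each group compared were tested with limma 3.58.1 in R 4.3.3 (two-sided tests from lmFit with eBayes; the fit held a mean for each of the 4 groups; between lines, the 6 samples of 1 arm after centring raw Ct on the card mean), adjusted by Benjamini-Hochberg over all assays of a comparison and called under 0.05. The code was tested on simulated data. Alternatives changed the reference, the filter, unmeasured values, the replicate block, the samples fitted and each sample in turn. Deviations from group means correlated between same-numbered siSOX2 and NC samples in both lines. The values were 0.12, 0.26 and 0.16 in NTera-2 cells and 0.16, 0.17 and 0.06 in 2102Ep cells. Samples of unlike number gave −0.18 to 0.054 in NTera-2 cells and −0.22 to 0.036 in 2102Ep cells. Deviations from a group mean sum to 0, so positive values at like numbers draw the others below 0. The lower values of unlike pairs are therefore not separate evidence of pairing. The main fits left the replicate numbers out, and the block was run as an alternative in both lines. Replicates correlated at 0.940 to 0.989 in dCt, and 0 pairs were identical. Precision is limited by 3 samples a group; Ct gives no molecule counts.

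The members and lists were chosen with earlier results of these data known. Named were the 4 assays, other assays of the same precursors, neural-list assays past the threshold and the 3 assays most alike to each.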

Additional observations from a re-analysis of the deposited data

Results flagged for a closer look

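The response of miR-218 to SOX2 knock-down differed between the lines: the effect in NTera-2 cells minus that in 2102Ep cells was 1.50 on the log2 scale (limma, adjusted p = 0.00387; 0.0525 with the replicate block, and 1.05 with adjusted p = 0.0714 under RNU44 and RNU48), with all 3 NTera-2 siSOX2 samples above and all 3 2102Ep siSOX2 samples below their NC samples. The lines also differed in siRNA dose and transfection reagent, and these cannot be told apart from the line.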

How the results depend on the processing

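Signs of the 4 assays after knock-down held in NTera-2 cells under every alternative run, and the estimates without 1 sample were −1.20 to −0.76 for miR-124 (called without NC replicate 1), −1.39 to −0.81 for miR-124#, −1.35 to −1.01 for miR-7 and 0.73 to 0.83 for miR-218; no value without 1 sample changed the sign of the difference between the lines for miR-124, miR-7 and miR-218. With RNU44 and RNU48 as the reference, 2102Ep values were 0.17 for miR-124, 0.23 for miR-7, 0.063 for rno-miR-7# and −0.38 for miR-218. This left 0 of the 3 assays that could be tested in this line called. In NTera-2 cells 2 of the 4 assays were called among 25 in all. This became 0 with U6 (miR-7 −1.17, miR-218 0.59), 1 of 16 with the global mean (miR-7 −0.67, rno-miR-7# 0.17), 1 with the global median (miR-7 −0.66, rno-miR-7# 0.18), 0 of 16 with RNU44 and RNU48 (miR-7 −1.11, miR-218 0.67), 0 of 11 with the line fitted alone (miR-7 −1.18, miR-218 0.77) and 0 to 2 of 10 to 24 without 1 sample. With the replicate block it became 0 of 9 in NTera-2 cells (miR-7 −1.18, miR-218 0.77) and 0 of 4 for the difference between the lines (miR-218 1.50); the block changed no call on the 4 assays in 2102Ep cells, where 51 assays were called. For the difference between the lines, where miR-124# could not be tested, RNU44 and RNU48 gave no call on the other members among 41 calls (miR-218 1.05, rno-miR-7# −0.34). Without 1 sample the calls over all assays numbered 6 to 29 there and 41 to 57 in 2102Ep cells, miR-124 in 2102Ep cells ranged from −0.28 to 0.011, and rno-miR-7# between the lines from −0.14 to 0.58 (−0.14, −0.033 and −0.044 where it turned negative). An alternative chosen after the counts had been seen, with the spread estimated over assays measured in either line, gave 61, 25 and 17 calls in 2102Ep cells, in NTera-2 cells and for their difference, against 63, 25 and 24, and the same calls on the 4 assays.

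Between the lines, the sample median as the scaling gave 1 of the 3 assays tested called among NC cells (miR-124 −0.88, miR-218 0.060) and 0.63 for miR-7 among siSOX2 cells. RNU44 and RNU48 gave −0.83 for miR-7 and −1.95 for miR-218 among NC cells, and −2.17 for miR-7, −0.91 for miR-218, −2.60 for miR-7-2#, −0.87 for miR-128a, −0.75 for miR-212 and −2.48 for miR-9# among siSOX2 cells. The deposited dCt has references that differ between the lines on card B, but miR-16 and U6 in both lines on card A. U6 on card A had a mean Ct of 10.8 in NTera-2 NC and 14.9 in 2102Ep NC cells. With the deposited dCt on card A, miR-218 was −4.07 among NC cells. Among siSOX2 cells miR-218 was −2.57, miR-128a −2.53 and miR-212 −2.41. On card B, miR-7 was −6.85, rno-miR-7# −5.35 and miR-9# −5.87 among NC cells. Among siSOX2 cells miR-7 was −7.70, miR-7-2# −8.12, rno-miR-7# −5.20 and miR-9# −8.01. MiR-7-2# among NC cells ranged from −1.89 to 0.092 without 1 sample (0.074 and 0.092 without NTera-2 NC replicates 1 and 3). The cause of these shifts was not tested. No paired fit was made between the lines, whose samples share only a number.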
